A study of Mus musculus with 2 samples.

Results

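The natriuretic peptide system genes are 8 genes that code for the peptides, their processing proteases and their receptors. The ligand genes are Nppa, Nppb and Nppc, the protease genes Corin and Furin, and the receptor genes Npr1, Npr2 and Npr3. They were chosen by symbol, by matching the Ensembl identifiers of the quantified genes to GENCODE mouse names. All 8 were found, among 43346 Ensembl genes of which 21474 are protein-coding. Gene coordinates below are those of GENCODE M21 on GRCm38. Total RNA from mouse heart at embryonic day 13.5 was sequenced in 2 libraries, replicate 2 and replicate 1 of 1 group. The embryos were of strain B6NCrl, healthy and untreated as far as the labels say, with males and females pooled. The labels call the libraries biological replicates, and both tissue samples are entered under the same donor. They do not say whether the embryos came from separate litters. With 1 group there is no treated or mutant arm, and levels within each library are what the design allows to be described.

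The atrial and B-type natriuretic peptides are hormones that heart muscle makes and secretes when it is stretched, and that lower blood pressure and blood volume. They act through a receptor that is itself a guanylyl cyclase and raises cyclic GMP in the target cell, and C-type natriuretic peptide acts through a close relative of it. A further receptor without a cyclase domain takes up all of these peptides and clears them. In the mouse embryo Nppa marks the working chamber muscle of the atria and of the trabeculated ventricle.

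The files held 36060765 estimated reads for replicate 2 and 36733400 for replicate 1, and added spike-in RNA took 2.56% and 5.96% of them. Levels are in TPM, a read number divided by transcript length and scaled to a fixed sum, of which spike-ins held 5.04% of replicate 2 and 11.1% of replicate 1. All 6 cardiomyocyte markers, all 7 atrial and all 4 ventricular markers reached 1 TPM in both libraries, as the heart label asks. Of all protein-coding genes 57.3% did, so a count of markers that reach it says little by itself. Liver markers also appeared: 7 of 8 reached 1 TPM in both libraries, and they summed to 517 TPM in replicate 2 and 97.0 TPM in replicate 1. Erythroid markers summed to 22272 TPM in replicate 2 and 36753 TPM in replicate 1. Of 4 lung and foregut markers all 4 reached it, with sums of 21.4 TPM in replicate 2 and 21.5 TPM in replicate 1. So did 1 of 4 skeletal muscle markers. Of 4 brain markers 0 did, and Sox1 was listed at 0 in both libraries. In whole tissue, fewer cells of a type and less RNA per cell cannot be told apart.

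The natriuretic peptides share a ring closed by a disulfide bridge between a pair of cysteines, and the ring is the part that the receptors recognise. The ring codons of Nppb and Nppc were read from the GENCODE M21 transcripts on GRCm38 and are shown because the ring is what makes the ligands a family. Capitals mark the codons of the 13 residues, of 17, that these rings share.
Nppb, chr4:147986464-147986514, plus strand: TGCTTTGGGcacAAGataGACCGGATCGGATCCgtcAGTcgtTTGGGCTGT
Nppc, chr1:86669667-86669717, minus strand: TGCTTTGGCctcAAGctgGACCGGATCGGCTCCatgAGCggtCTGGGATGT

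Each of these rings lies in exon 2 of 3, uninterrupted by an intron. Their codons were identical at 40 of 51 bases. The precursors end differently: 6 residues follow the ring in the 121-residue Nppb precursor and 0 in the 126-residue Nppc precursor.

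Of the 8 genes, 7 reached 1 TPM in both libraries and are called detected here. Among all protein-coding genes 57.3% did, so the share for so small a family is described and nothing more is read from it. The median over the 8 genes of the mean level was 10.0 TPM. It was 3.07 TPM over all protein-coding genes and 15.1 TPM over the detected ones. The order of the mean levels was Nppa, Nppb, Corin, Furin, Npr1, Npr2, Npr3 and Nppc. Neighbours in this order were apart in both libraries, in the sense that the deposited bounds of their TPM did not overlap, with the exception of Npr1 against Npr2 and of Npr2 against Npr3. The bounds come from the authors' credibility interval, whose level is not stated, and surround a posterior mean that can differ from the TPM itself.

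**Figure D1:**
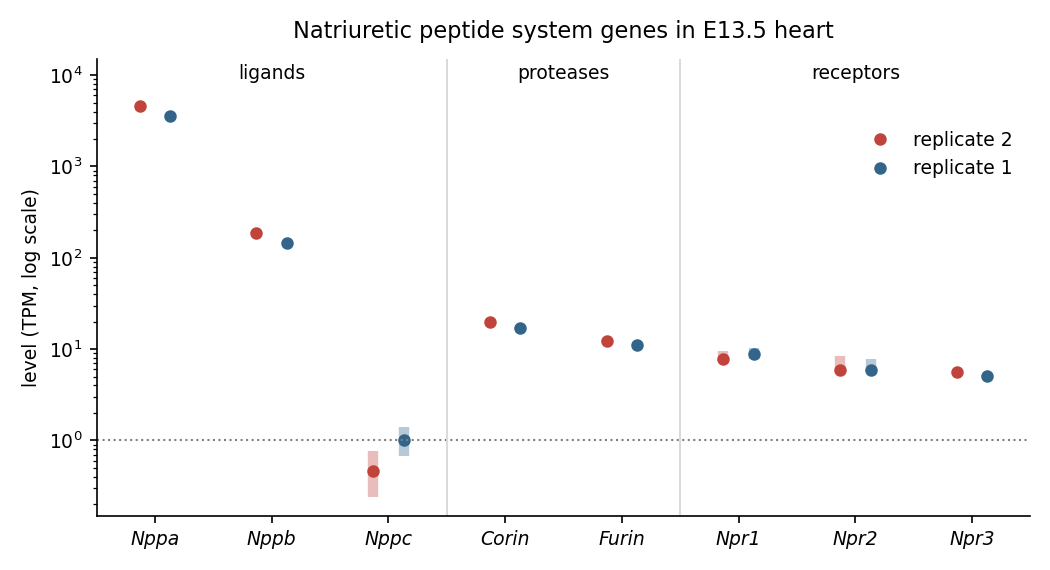
Level of each natriuretic peptide system gene in TPM on a log axis, with 1 point per library, the deposited bounds as shaded bars, and the dotted line at 1 TPM. The ligand Nppa sits at 4645 TPM in replicate 2 and at 3566 TPM in replicate 1, and the ligand Nppc sits at 0.46 and 1.01 TPM, with the proteases and receptors between 5.14 and 19.8 TPM.

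Nppa, the gene of atrial natriuretic peptide (ENSMUSG00000041616, chr4:148000722-148002079, plus strand), was at 4645 TPM in replicate 2 and at 3566 TPM in replicate 1, from 97479 and 80018 estimated reads. Its mean was 4105 ± 763 TPM (SD, n = 2). It ranked 11 among the protein-coding genes of replicate 2 and 16 in replicate 1. Nppa was higher in replicate 2, and its deposited bounds, 4520 to 4577 TPM in replicate 2 and 3473 to 3521 TPM in replicate 1, did not overlap. In both libraries its TPM lay above its own upper bound, since the bounds surround a posterior mean of 4548 TPM in replicate 2 and 3497 TPM in replicate 1. The protein-coding genes closest to it in level over the 2 libraries were Myl7, the atrial myosin light chain, at 4284 and 3504 TPM, and Atp5b, a subunit of ATP synthase, at 4475 and 3841 TPM. Here closeness is the Euclidean distance of log2(TPM + 0.1).

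An antisense gene, Gm13054, overlaps the Nppa gene by 989 bases. Of the 766 windows of 100 bases along the Nppa transcript, 336, or 43.9%, also occur in Gm13054 in the opposite orientation. No source used here says whether reads were counted by strand, so reads of Nppa and of this partner may not be separable. Gm13054 was listed at 19.1 TPM in replicate 2 and at 15.8 TPM in replicate 1, far below Nppa. The estimated read numbers of Nppa were not whole, at 97479.4 and 80017.6.

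Nppb, the gene of B-type natriuretic peptide (ENSMUSG00000029019, chr4:147985788-147987205, plus strand), was at 188 TPM in replicate 2 and at 145 TPM in replicate 1, from 3514 and 2905 reads. Its mean was 167 ± 30.2 TPM (SD, n = 2), rank 723 by mean level. Nppb too was higher in replicate 2, with bounds of 178 to 190 TPM in replicate 2 against 137 to 148 TPM in replicate 1 that did not overlap. Its log2 ratio of TPM was 0.37, against the median of 0.15 given for Nppa. Nppb shares no 100-base window with another gene. Closest in level were Ciao2b, at 188 and 146 TPM, and the Z-disc gene Pdlim3, at 185 and 147 TPM.

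Nppc, the gene of C-type natriuretic peptide (ENSMUSG00000026241, chr1:86666291-86670571, minus strand), was at 0.46 TPM in replicate 2 and at 1.01 TPM in replicate 1. Behind these values stand 12 reads in replicate 2, with an exact 95% Poisson interval of 6.20 to 20.96, and 28 reads in replicate 1, with an interval of 18.6 to 40.5. The intervals cover counting error only. Replicate 1 was just above and replicate 2 below 1 TPM, so Nppc was the only one of the 8 genes not called detected. Its deposited bounds were 0.239 to 0.764 TPM in replicate 2 and 0.669 to 1.41 TPM in replicate 1, which overlap.

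Within each library Nppa made up nearly all of the ligand RNA. Of the summed TPM of the 3 ligand genes, Nppa held 96.1% in replicate 2 and 96.1% in replicate 1. Nppb held 3.89% in replicate 2 and 3.92% in replicate 1, and Nppc 0.00952% and 0.0272%. The ratio of Nppa to Nppb was 24.7 in replicate 2 and 24.5 in replicate 1, a mean log2 ratio of 4.62 ± 0.01 (SD, n = 2), although each gene alone differed between the libraries. The ratio of Nppa to Nppc was between 5919 and 19171 in replicate 2 and between 2469 and 5263 in replicate 1, taking the deposited bounds of both genes, and was not called since Nppc was not detected.

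Nppa and Nppb lie in tandem on chromosome 4, both on the plus strand, with 13517 bases between the end of Nppb and the start of Nppa. The 6 neighbouring genes on a list of the locus were all detected, against 57.3% of all protein-coding genes, with a median of 16.05 TPM. The highest was Mfn2, a mitochondrial fusion gene, at 86.1 TPM in replicate 2 and at 79.7 TPM in replicate 1, followed by Plod1, a collagen lysyl hydroxylase, at 40.3 and 34.0 TPM. Clcn6, a chloride transporter gene 2180 bases past Nppa on the other strand, was at 5.34 and 4.48 TPM. Both natriuretic peptide genes were thus higher than each of these neighbours in both libraries.

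The sequence before the start of transcription is shown for these tandem genes because cardiac factors are known to act there. Windows of 250 bases before the RefSeq start were taken from RefSeq on GRCm38.p6, and capitals mark matches to 5 short motifs chosen with the sequences in view. They are GATAA (the GATA factor core), TNAAGTG (an NKX2-5 element), GGTGTGA (a T-box element) and CATTCC (the M-CAT element of TEAD factors), each searched on both strands, and TATAAA (the TATA box) on the gene's strand.
Nppa promoter, chr4:148000472-148000721, plus strand: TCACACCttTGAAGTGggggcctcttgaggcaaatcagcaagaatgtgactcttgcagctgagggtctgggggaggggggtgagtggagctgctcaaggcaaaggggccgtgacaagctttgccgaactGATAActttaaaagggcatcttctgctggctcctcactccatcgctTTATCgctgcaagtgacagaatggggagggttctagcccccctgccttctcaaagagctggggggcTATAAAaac
Nppb promoter, chr4:147985650-147985899, plus strand: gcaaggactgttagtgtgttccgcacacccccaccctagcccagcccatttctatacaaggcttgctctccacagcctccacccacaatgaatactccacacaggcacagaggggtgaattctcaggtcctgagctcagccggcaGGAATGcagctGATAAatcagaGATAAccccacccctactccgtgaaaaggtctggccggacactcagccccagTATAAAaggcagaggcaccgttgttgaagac

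Each window held GATAA at 2 places. With positions counted from the RefSeq start, they lay in Nppa at -121 to -117 on the plus strand and at -75 to -71 on the minus strand, where the match reads TTATC. In Nppb they lay at -94 to -90 and at -83 to -79, both on the plus strand. Of 32851 mouse promoter windows of the same length, 22.6% held GATAA at least once, and the windows of the other 6 genes held none. The Nppa window also held TNAAGTG and, on the minus strand, GGTGTGA, motifs found in 10.1% and 3.33% of all windows. The Nppb window held CATTCC on the minus strand, found in 12.6% of windows. Both held TATAAA, found in 7.59% of windows, at -9 to -4 in Nppa and at -31 to -26 in Nppb. Whether either match works as a TATA box, and whether the annotated starts are exact, was not tested. Among the other 6 genes TATAAA also occurred in the windows of Nppc and Furin and TNAAGTG in those of Furin. The CArG box of serum response factor, searched only as CC, 6 bases of A or T, and GG, was found in 1.47% of windows. None of those of the 8 genes held this strict form. Looser forms were not searched, and the Nppa window holds ctttaaaagg, which differs from the strict form at its second base only. A match is a description of the letters and not evidence of binding. The GENCODE model of Nppb starts 112 bases upstream of its RefSeq start, so all of the Nppb matches lie inside that model.

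Genes of 15 factors known to act on Nppa or Nppb were listed too. All 15 were detected, against 57.3% of all protein-coding genes, with a median of 21.3 TPM. The highest were the homeobox factor Nkx2-5, at 116 TPM in replicate 2 and at 105 TPM in replicate 1, and the zinc-finger factor Gata4, at 89.0 and 84.3 TPM. The T-box factor Tbx20 followed at 57.5 and 55.1 TPM, and Myocd, the coactivator of serum response factor, at 49.0 and 51.7 TPM. The lowest was Tbx2, a T-box repressor of chamber genes in the atrioventricular canal, at 1.67 and 2.24 TPM.

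Corin, the membrane serine protease that cuts pro-atrial natriuretic peptide (ENSMUSG00000005220, chr5:72300025-72504473, minus strand), was at 19.8 TPM in replicate 2 and at 16.9 TPM in replicate 1, from 2487 and 2284 estimated reads. Its mean was 18.3 ± 2.04 TPM (SD, n = 2). The bounds, 18.9 to 20.8 TPM in replicate 2 and 16.1 to 17.7 TPM in replicate 1, did not overlap, replicate 2 being higher. For Corin the log2 ratio of TPM, replicate 2 over replicate 1, was 0.23, where the median gene was at 0.15. From the scaled read numbers given below it was 0.08, with a counting interval that included 0. Furin, the proprotein convertase that cuts the B-type and C-type precursors in the secretory pathway (ENSMUSG00000030530, chr7:80388585-80405436, minus strand), was at 12.2 TPM in replicate 2 and at 11.1 TPM in replicate 1, from 1382 and 1309 reads. Its mean was 11.6 ± 0.778 TPM (SD, n = 2), and its bounds overlapped between the libraries. Corin exceeded Furin 1.62-fold in replicate 2 and 1.52-fold in replicate 1, without overlap of the bounds in either.

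Corin RNA was divided between 2 full-length coding models that differ at their 5′ ends. Corin-202 held 72.8% of the gene's TPM in replicate 2 and 64.6% in replicate 1, and Corin-201 held 26.7% and 35.4%. On the minus strand the model of Corin-202 begins at 72504473 and that of Corin-201 at 72504208. Of Furin, the coding model Furin-201 held 77.9% in replicate 2 and 76.2% in replicate 1, and Furin-203, which starts further downstream, 12.98% and 11.98%. Nppa, Nppb, Nppc and Npr3 have 1 model each in the deposited quantification, which used annotation M4. In GENCODE M21 the Npr3 gene extends past its model, to 11907287 against 11905639. That further sequence was not quantified.

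A list of 15 genes held other enzymes of peptide processing and clearance, without regard to whether each acts on natriuretic peptides. Of these 15 genes, 11 were detected, against 57.3% of all protein-coding genes, and 7 reached 5 TPM in both libraries. The list's median level was 4.27 TPM. The highest was Pam, an amidating enzyme that is a major membrane protein of atrial granules, at 331 TPM in replicate 2 and at 265 TPM in replicate 1. Ece1, the endothelin-converting enzyme, was at 64.5 and 60.1 TPM, Ide, the insulin-degrading enzyme that also cuts atrial natriuretic peptide, at 47.6 and 40.2 TPM, and Galnt1, which attaches O-linked sugars, at 35.7 and 33.3 TPM. Pcsk6, the convertase that activates corin, was at 1.43 and 1.19 TPM, and Mme, neprilysin, at 3.38 and 5.15 TPM. The neuroendocrine convertases Pcsk1 and Pcsk2 and the meprins Mep1a and Mep1b were below 1 TPM in both libraries.

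**Figure D2:**
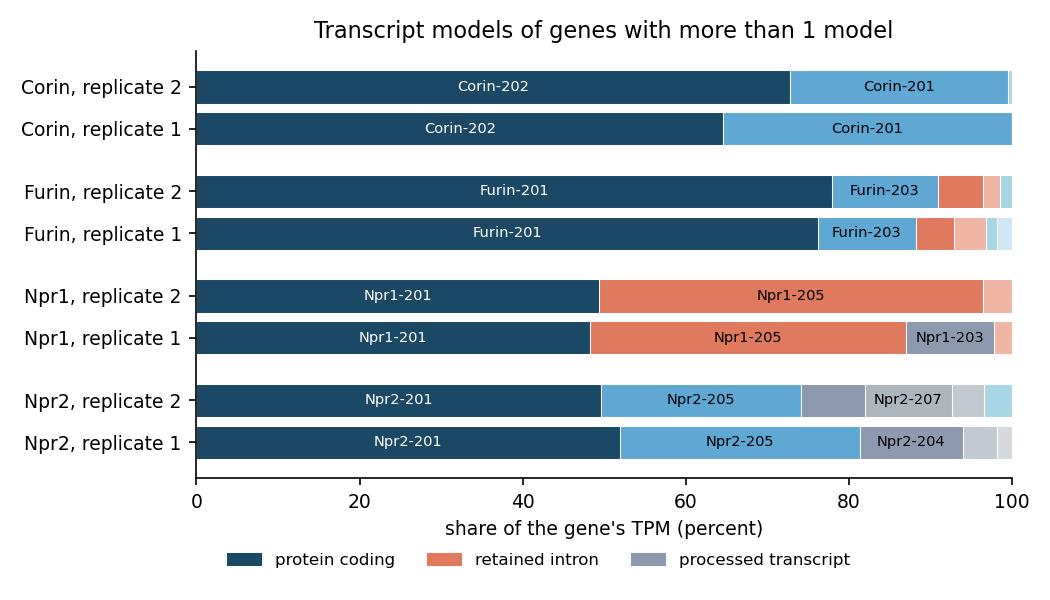
Share of each gene's TPM held by each quantified transcript model, in percent, in replicate 2 and replicate 1. The genes are those with more than 1 such model, and colours mark the transcript type. Shades mark models of the same type, and models above 10 percent carry their name. The 949-base retained-intron model takes 47.0% and 38.8% of Npr1, and coding models take 92.3% and 91.3% of Furin.

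The receptor genes were close together. Npr1, the guanylyl cyclase receptor of the atrial and B-type peptides (ENSMUSG00000027931, chr3:90450591-90465866, minus strand), was at 7.89 TPM in replicate 2 and at 8.90 TPM in replicate 1, a mean of 8.40 ± 0.714 TPM (SD, n = 2). Npr2, the guanylyl cyclase receptor of the C-type peptide (ENSMUSG00000028469, chr4:43631935-43651244, plus strand), was at 5.92 TPM in replicate 2 and at 5.98 TPM in replicate 1, a mean of 5.95 ± 0.0424 TPM. Npr3, the clearance receptor (ENSMUSG00000022206, chr15:11839896-11907287, minus strand), was at 5.61 TPM in replicate 2 and at 5.14 TPM in replicate 1, a mean of 5.38 ± 0.332 TPM. The estimated reads in replicate 2 and replicate 1 were 514 and 607 for Npr1, 415 and 491 for Npr2 and 1050 and 1028 for Npr3, whose transcript is the longest. The bounds were 7.21 to 9.57 TPM in replicate 2 and 7.75 to 10.3 TPM in replicate 1 for Npr1. They were 5.77 to 8.44 TPM and 5.84 to 7.88 TPM for Npr2, and 5.17 to 5.83 TPM and 4.74 to 5.35 TPM for Npr3. For each of the 3 genes they overlapped between the libraries.

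Antisense genes also overlap both cyclase receptor genes, but share little of their transcripts. Gm16048 shared 3.17% of the 100-base windows of Npr1 and was at 0.24 TPM in replicate 2 and at 0.22 TPM in replicate 1. Gm12473 shared 1.15% of those of Npr2 and was at 1.22 and 1.71 TPM.

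The receptors held 19.4 TPM together in replicate 2 and 20.0 TPM in replicate 1, so the summed ligand TPM was 248.9 and 185.4 times the summed receptor TPM in replicate 2 and in replicate 1. Of this sum Npr1 held 40.6% in replicate 2 and 44.5% in replicate 1, Npr2 30.5% and 29.9%, and Npr3 28.9% and 25.7%. The cyclase receptors together exceeded the clearance receptor 2.46-fold in replicate 2 and 2.89-fold in replicate 1. These values count every transcript model of a gene and change with the choice of models, as given below for the full-length ones. Npr1 over Npr2 was 1.33 in replicate 2 and 1.49 in replicate 1, with overlapping bounds in both. Npr2 over Npr3 was 1.06 and 1.16, with overlapping bounds in replicate 2. Npr1 over Npr3 was 1.41 and 1.73, a mean log2 ratio of 0.64 ± 0.21 (SD, n = 2), and its bounds were apart in both libraries.

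The gene-level order of the receptors rested on short transcript models. Of Npr1 TPM, 50.6% in replicate 2 and 51.7% in replicate 1 lay on models that are not coding, but only 17.6% and 17.8% of its reads did. A retained-intron model of 949 bases at the 3′ end of the gene held 47.0% of the gene's TPM in replicate 2 and 38.8% in replicate 1, from 86.4 and 85.9 estimated reads. The full-length coding model of 4066 bases held 49.4% and 48.3%. Of Npr2, the full-length coding model of 3660 bases held 49.6% of TPM in replicate 2 and 51.9% in replicate 1. A coding model of 2106 bases without an annotated start of its coding sequence held 24.7% and 29.4%. Because TPM divides by length, few reads on a short model weigh heavily in the sum.

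On the full-length coding models alone, a setting chosen after the values were seen, Npr3 came before Npr1 and Npr2. Npr3 was at 5.61 TPM in replicate 2 and at 5.14 TPM in replicate 1, the Npr1 model at 3.90 and 4.30 TPM and the Npr2 model at 2.94 and 3.11 TPM. Npr3 over Npr1 was then 1.44 in replicate 2 and 1.20 in replicate 1, without overlap of the bounds in either library. The setting could lower only Npr1 and Npr2, since Npr3 has 1 quantified model and kept all of its reads. The full-length model kept 82.4% of Npr1 reads in replicate 2 and 82.2% in replicate 1, and 69.0% and 66.0% of Npr2 reads. Of the summed TPM of these models Npr3 held 45.1% in replicate 2 and 41.0% in replicate 1, Npr1 31.3% and 34.3%, and Npr2 23.6% and 24.8%. The cyclase receptors together exceeded the clearance receptor 1.22-fold in replicate 2 and 1.44-fold in replicate 1. The summed ligand TPM was 388 times that of the receptor models in replicate 2 and 296 times in replicate 1. With all reads of each gene put on its full-length model, Npr1 was at 4.73 TPM in replicate 2 and at 5.23 TPM in replicate 1 and Npr2 at 4.26 and 4.71 TPM. Npr3 was then the highest receptor in replicate 2 and Npr1 in replicate 1, and the cyclase receptors together exceeded the clearance receptor 1.60-fold and 1.93-fold. Which of the cyclase receptor and the clearance receptor had more RNA per length therefore depended on how reads of Npr1 were assigned.

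**Figure D3:**
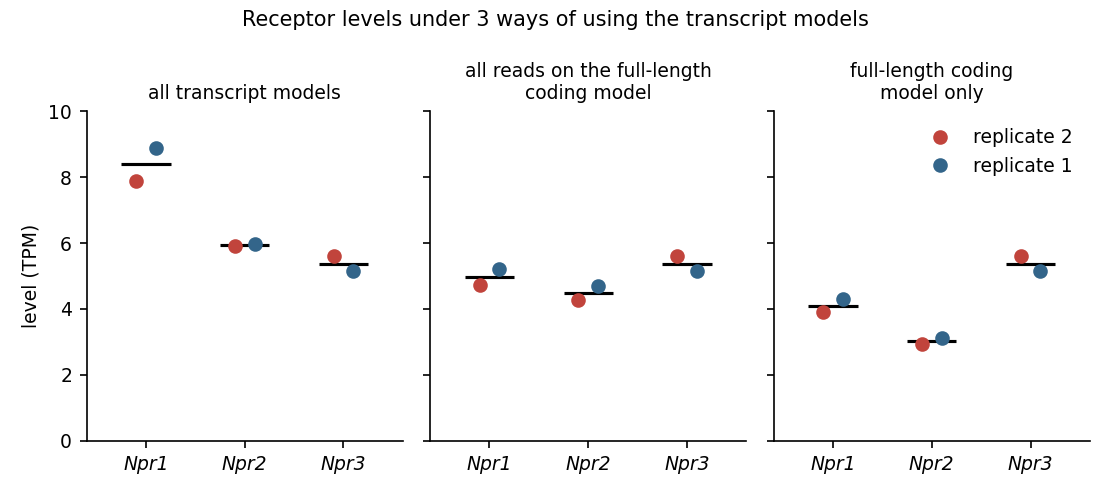
TPM of the receptor genes Npr1, Npr2 and Npr3 in replicate 2 and replicate 1 under 3 ways of assigning reads: all transcript models, all reads placed on the full-length coding model, and that model alone. Points are libraries and bars their means. Npr1 is highest over all models at 7.89 and 8.90 TPM, and Npr3 is highest for the coding model alone at 5.61 and 5.14 TPM.

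Of the 21 pairs among the 7 detected genes, 19 had bounds apart in both libraries in the same direction, or were called, and 14 differed at least 2-fold in both. Among all pairs of detected protein-coding genes 89.2% were called by the same rule, so the count itself is near what pairs of genes generally gave. The pairs not called were both among receptors. Nppa exceeded Npr1 589-fold in replicate 2 and 401-fold in replicate 1, and Npr3 828-fold and 694-fold. Nppb exceeded Npr1 23.8-fold in replicate 2 and 16.3-fold in replicate 1. Against the full-length coding model of Npr1 alone, the ratio was 1191 in replicate 2 and 829 in replicate 1 for Nppa, and 48.2 and 33.8 for Nppb. Furin exceeded Npr3 2.17-fold and 2.15-fold.

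**Figure D4:**
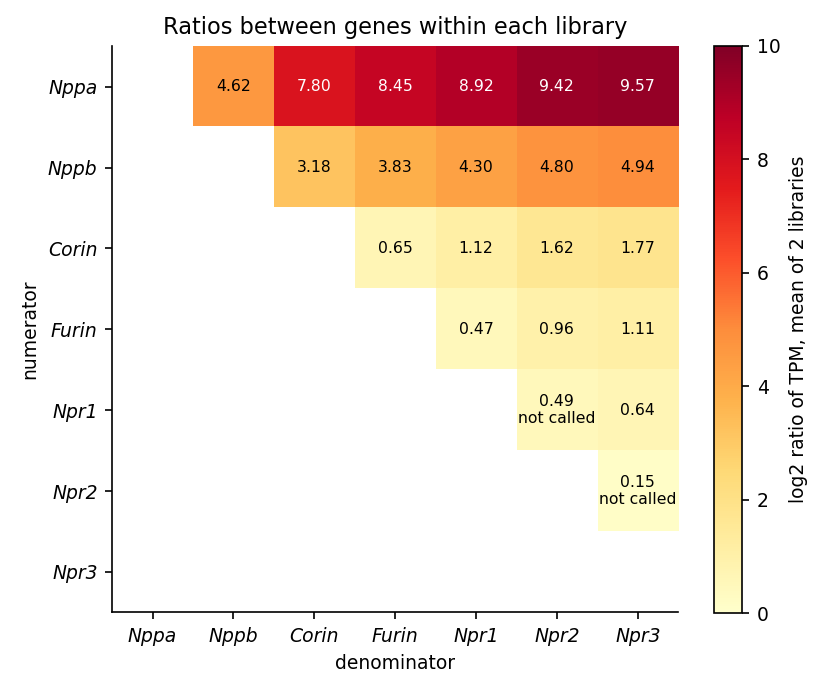
Heat map of the log2 ratio of TPM within a library, averaged over the 2 libraries, of the gene in the row over the gene in the column, for the 7 detected genes. Ratios reach 9.57 for Nppa over Npr3, and the pairs not called are Npr1 over Npr2 at 0.49 and Npr2 over Npr3 at 0.15.

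Genes of cyclic GMP signalling were listed as well, without regard to whether each acts after these receptors. Of 19 genes that matched, 16 reached 1 TPM in both libraries, against 57.3% of all protein-coding genes, and 9 reached 5 TPM in both. The median over the 19 was 4.96 TPM, where the median of detected protein-coding genes was 15.1 TPM. Pde2a was not analysed here. The highest were Vasp, an actin regulator and a substrate of cyclic GMP-dependent kinase, at 66.9 TPM in replicate 2 and at 63.1 TPM in replicate 1, Pde6d, a binding partner of prenylated proteins, at 54.8 and 47.0 TPM, and Abcc5, an exporter of cyclic nucleotides, at 53.9 and 47.4 TPM. Gucy1b1, the beta subunit of the nitric oxide-sensitive guanylyl cyclase, was at 48.4 and 44.0 TPM. The kinase gene Prkg1 was at 5.55 and 5.57 TPM, and Prkg2 and Gucy1a2 were below 1 TPM in both. None of 8 genes of other receptor guanylyl cyclases and other peptide ligands was detected, against 57.3% of all protein-coding genes. Their sum was 0.23 TPM in replicate 2 and 0.25 TPM in replicate 1.

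Between the libraries Nppa and Nppb were higher and the cyclase receptors lower in replicate 2, each by less than 2-fold, relative to other genes; on the spike-in scale all were higher. These ratios are replicate 2 over replicate 1 of read numbers scaled by edgeR's TMM factors, given where the counts averaged 50 or more. The log2 ratio was 0.24 for Nppa (95% counting interval 0.23 to 0.25) and 0.23 for Nppb (0.16 to 0.30). It was -0.29 for Npr1 (-0.46 to -0.11) and -0.29 for Npr2 (-0.48 to -0.10), but as a ratio of TPM it was -0.17 for Npr1 and -0.01 for Npr2, where the median of all genes was 0.15. Intervals of Corin at 0.08, Furin at 0.03 and Npr3 at -0.02 included 0. With 1 library on each side there is no test, and the intervals cover counting error only.

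No gene of the 7 with enough reads was at least 2-fold higher or at least 2-fold lower in replicate 2. Among 13763 genes 0.741% were at least 2-fold higher and 0.269% at least 2-fold lower. The median absolute log2 ratio of all these genes was 0.0965, and 82.8% of genes had a smaller one than Nppa and 87.3% a smaller one than Npr2. Nppc, with a mean count of 20, was under the minimum count, and its log2 ratio was -1.23 (-2.38 to -0.24). Scaled by spike-in reads, the median of all genes moved to 1.29 and all 8 ratios were positive, with Npr1 and Npr2 at 1.00 and Nppa at 1.53, so the signs hold relative to the other genes only.

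Marker lists moved between the libraries beside these ratios. The medians of the log2 ratio were 0.04 for cardiomyocyte, 0.06 for atrial and 0.09 for ventricular markers, where 3 of 6, 4 of 7 and 3 of 4 genes were higher in replicate 2. They were -0.09 for endocardium and endothelium, -0.36 for epicardium and -0.37 for cushion and fibroblast markers, where 1 of 6, 0 of 5 and 2 of 5 genes were higher. Liver markers were higher in replicate 2 in 8 of 8, each at least 2-fold, with a median of 2.65, and erythroid markers in 1 of 5, with a median of -0.84. Smooth muscle markers were higher in 4 of 4, with a median of 0.15. The part of any of these in the ratios of the ligands and receptors was not tested.

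**Figure D5:**
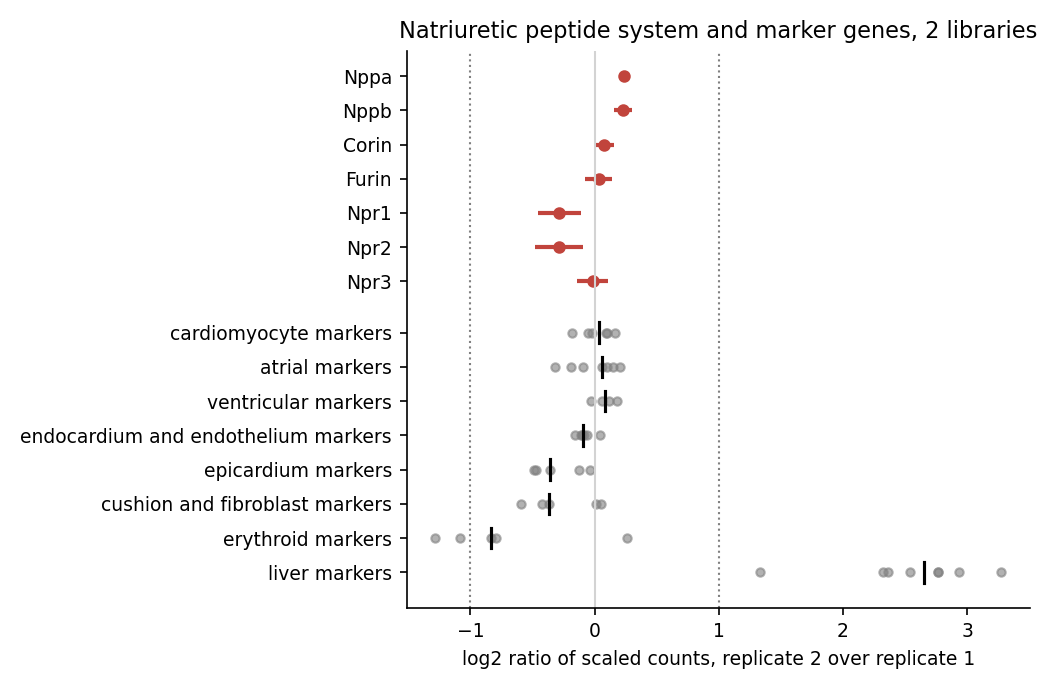
Log2 ratio of replicate 2 over replicate 1 from TMM-scaled read numbers, for the natriuretic peptide system genes with their 95% counting intervals and for the genes of each marker list, with black bars at the list medians. Nppa at 0.24 and Nppb at 0.23 lie right of 0, Npr1 and Npr2 at -0.29 lie left of it, and liver markers lie beyond the dotted line at 1; under spike-in scaling all of the natriuretic peptide system genes are positive.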

How the data were processed

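Total RNA of E13.5 heart was extracted with mirVana, with 10 ng of input and RNA above 200 nt, per the labels. The deposited files hold expected counts per gene and transcript, which the authors estimated from alignments on mm10 with annotation M4, per the deposited file descriptions. The deposited TPM values are, per the file headers, scaled to 1 sum per library with spike-ins included, and the percent columns give each transcript's share of its gene's TPM. The bounds of TPM were used as a signal with a lower and an upper value, as deposited by the authors. The aligner and the quantifier are not named in the sources used here.

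Identifiers were matched to GENCODE M21, and 42462 of 43346 genes matched. Spike-ins and phiX (97 entries, 2.56% and 5.96% of reads in replicates 2 and 1) and 26248 numbered features (49 and 42 reads) were kept out of library sizes. Expected counts were rounded, scaled with TMM (edgeR 4.0.16) and compared as log2 ratios after adding 0.5; DESeq2 1.42.0 size factors, spike-in scaling, other count minimums and other read assignments were alternatives. No p-value was computed, since each side is 1 library. R 4.3.3, Python 3.11.15 with matplotlib 3.10.9, scipy 1.17.1, pandas 2.3.3 and numpy 2.4.6 were used, and the ratio step was tested on simulated data. All members are named; of each list the up to 4 highest genes are named, and those below 1 TPM in both libraries where 4 or fewer. Pcsk6, Mme, Prkg1, Clcn6 and Tbx2 were named after their values were seen. The members and lists were chosen with earlier results of these data known. The remaining ligand sequence is not reported here.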

Additional observations from a re-analysis of the deposited data

How the results depend on the processing

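No paired analysis was possible because the study has 1 group. Of 278 results under alternatives, 179 kept their direction and call. A further 95 moved past the replicate spread or, for numbers of genes or pairs, by over 1.5 times. Leaving out a library could not move a mean past that spread, since with n = 2 each library lies within an SD of the mean. The sum of transcript TPM repeats the gene level. Such results are among the 179 by construction. Signs changed in 13 of the 278 results, which are 9 of those that moved and the other 4, of a called ratio. The log2 ratio of Npr1 over Npr3, 0.64, reversed to -0.39 with protein-coding transcripts only, -0.39 with the full-length models, -0.11 with all reads on those models and -0.89 as a ratio of expected counts not corrected for length. Of the pairs not called, Npr1 over Npr2, 0.49, turned to -0.21 with protein-coding transcripts only, and Npr2 over Npr3, 0.15, lay between -1.20 and -0.18 under the same 4 settings. The replicate ratios of Npr1, Npr2 and Npr3 turned to 1.00, 1.00 and 1.27 with spike-in scaling, and that of Npr3 to 0.13 as a ratio of TPM. Genes at least 2-fold higher in replicate 2 numbered 102, and 12805 with spike-in scaling, 424 with a mean count of at least 10 and 2782 with no filter. Genes at least 2-fold lower numbered 37, and 8, 291 and 2382 under the same settings. Detected members numbered 7 with 0.5 or 5 TPM as the minimum, 7 without replicate 1 and 8 without replicate 2, the lone library then standing for both. Pairs called numbered 19, 14 by a 2-fold rule, 19 without replicate 1 and 20 without replicate 2. The cause of these changes was not tested, other than that a lower count minimum lets more genes in. Counting limits Nppc most, with 12 and 28 reads.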
